A study of Homo sapiens with 33 samples.

Results

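The 44 genes described here encode proteins that carry a cell into and through mitosis: the kinases and cyclins of mitotic entry, the spindle checkpoint and the ubiquitin ligase it restrains, the kinetochore, the chromosomal passenger complex, the motors of the spindle and midzone, and the proliferation marker MKI67. They were chosen by gene symbol and are 44 of the 60675 genes in the deposited table. All 44 passed the filter on low counts, as did 17432 genes in total. Their RNA was measured in HT29, a human colorectal adenocarcinoma cell line, 24 h after addition of an extract made with 70% ethanol from 1 of 4 multi-herb formulas of Korean medicine. Palmul-tang joins the herbs of Sagunja-tang and Samul-tang, and Sibjeondaebo-tang adds further herbs to Palmul-tang.

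The 3 doses of an extract were 20, 100 and 500 µg/mL, called low, medium and high here. Sagunja-tang and Samul-tang had 2 libraries at each dose (replicates 2 and 3), and Palmul-tang and Sibjeondaebo-tang had 3. The comparison group was 3 libraries of cells given the vehicle, DMSO, for which the sample labels state 0.1% and the text on the whole series another percentage. The deposited values summed to between 28558866 and 49068019 counts in extract libraries and between 31071786 and 35626398 counts in vehicle libraries. HT29 stands here as a single transformed epithelial line, and no label says that the replicates of a group came from separate cultures, so a p-value here rests on the scatter among these libraries, and that scatter may be technical. The codes of the vehicle samples begin differently from those of the extracts, with no meaning given, so whatever the code stands for and extract treatment cannot be told apart in a comparison with vehicle. Sagunja-tang and Samul-tang codes also begin differently from those of Palmul-tang and Sibjeondaebo-tang, so the same limit holds between these pairs of extracts. The title of every sample, vehicle included, carries the label BatchE. All 10 colon epithelium markers examined stood at 1 CPM or more in every library, with summed levels of 11489 to 14030 CPM in extract libraries and 11772 to 12511 CPM in vehicle libraries, while PDGFRA and KDR, which mark fibroblasts and endothelium, were at 0 in all of them. The 8 fibroblast markers summed to 1.71 to 2.80 CPM in extract libraries and 1.82 to 2.22 CPM in vehicle libraries, and the 5 endothelium markers to 1.87 to 2.94 CPM and 2.22 to 2.61 CPM. The 7 immune markers summed to 1380 to 1832 CPM in extract libraries and 1346 to 1422 CPM in vehicle libraries, nearly all of it LYZ, lysozyme, at 1335 to 1825 CPM over all libraries, while PTPRC, the pan-leukocyte marker CD45, was at most 0.07 CPM.

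One library stood apart. In replicate 2 of high-dose Sagunja-tang, the deviation of genes from their overall mean ran with exon length at a Spearman correlation of -0.274 across genes, against -0.185 to 0.107 in the other libraries. Its counts also differed more from those of its partner, with a chi-square of 26.9 per gene, than any other replicate pair did (3.54 to 18.3). Without it, fewer of all genes tested were called between the high and low doses of Sagunja-tang. The same held without either low-dose library, and without its partner more were called. Each of these fits left a group without replicates, so the change in calls does not mark out this library. Calls lost without it are given beside the results.

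Most of these genes are transcribed in a wave late in the cell cycle, so in a growing culture their RNA follows the share of cells in G2 and mitosis. In resting or early cells the DREAM complex holds them down through a DNA element, the cell cycle genes homology region, and later B-MYB, FOXM1 and the CCAAT-binding factor NF-Y help to turn them on. Bulk RNA cannot tell apart fewer cells in a phase and less RNA of these genes per cell, and that holds for every value below. Colorectal cancer lines such as HT29 divide continuously, and all 44 genes were detected.

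The regions around the start sites show the letters through which this group of genes is known to be read. RefSeq windows of 300 bases (GRCh38.p14, 250 before to 50 after a start) matched 37 of the 44 genes, with 47 windows between them. TTTGAA, the core of the cell cycle genes homology region, occurred on either strand in 63.8% of these windows, against 15.2% of all 35116 windows. CCAAT occurred on either strand in 76.6% of them, against 34.6% of all windows, and both motifs occurred together in 53.2%, against 5.90%. A match describes letters and is not evidence of binding. Windows are printed for CDC20, called between doses with all 4 extracts, for CCNB2 and PLK1, which rose with dose with 2 extracts each, and for MKI67, which lay apart from the rest. Capitals mark every TTTGAA and CCAAT on either strand, the opposite strand reading TTCAAA and ATTGG. The windows lie at chr1:43358731-43359030 on the plus strand for CDC20, chr15:59104896-59105195 on the plus strand for CCNB2, chr16:23678639-23678938 on the plus strand for PLK1 and chr10:128126374-128126673 on the minus strand for MKI67.
CDC20: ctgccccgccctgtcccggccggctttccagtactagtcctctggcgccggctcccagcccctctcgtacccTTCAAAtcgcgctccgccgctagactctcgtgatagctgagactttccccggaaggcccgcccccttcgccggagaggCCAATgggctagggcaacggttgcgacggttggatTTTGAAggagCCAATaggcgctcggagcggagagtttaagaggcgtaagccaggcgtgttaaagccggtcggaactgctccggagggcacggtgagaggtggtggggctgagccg
CCNB2: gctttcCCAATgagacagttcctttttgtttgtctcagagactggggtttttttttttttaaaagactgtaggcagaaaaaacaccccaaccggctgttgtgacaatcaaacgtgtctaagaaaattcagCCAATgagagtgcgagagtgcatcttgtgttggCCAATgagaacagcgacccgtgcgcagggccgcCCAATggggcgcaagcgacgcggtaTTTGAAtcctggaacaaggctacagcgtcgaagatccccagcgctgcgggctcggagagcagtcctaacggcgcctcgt
PLK1: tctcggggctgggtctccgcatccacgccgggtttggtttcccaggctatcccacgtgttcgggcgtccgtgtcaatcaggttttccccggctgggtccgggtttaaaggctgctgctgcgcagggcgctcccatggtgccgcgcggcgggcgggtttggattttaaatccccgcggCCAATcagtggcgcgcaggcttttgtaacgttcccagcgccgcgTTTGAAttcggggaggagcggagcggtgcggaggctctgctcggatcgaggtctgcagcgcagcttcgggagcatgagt
MKI67: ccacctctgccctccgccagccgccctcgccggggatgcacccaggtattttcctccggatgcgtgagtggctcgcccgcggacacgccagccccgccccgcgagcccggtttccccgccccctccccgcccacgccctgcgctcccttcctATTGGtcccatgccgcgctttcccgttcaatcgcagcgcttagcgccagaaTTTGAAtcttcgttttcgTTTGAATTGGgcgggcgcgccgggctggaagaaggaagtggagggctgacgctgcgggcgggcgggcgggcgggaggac
In CCNB2 the window held 4 CCAAT matches, whose first bases lay 244, 120, 87 and 54 bases before the start, and 1 TTTGAA 29 bases before it. PLK1 had 1 TTTGAA at 29 and 1 CCAAT at 73 bases before the start. CDC20 had TTTGAA at 65 bases on its own strand and at 178 bases on the opposite strand, with CCAAT at 100 and 55 bases. MKI67 had TTTGAA at 47 and 29 bases and CCAAT on the opposite strand at 98 and 24 bases, 1 of the TTTGAA matches sharing a base with an ATTGG.

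As a group the 44 genes made up between 0.580% and 0.644% of all counts. Their summed level, in CPM, the counts scaled to library size with TMM factors, was 6078 ± 190 in vehicle libraries (SD, n = 3). With Sagunja-tang the sum was 5918 ± 3.54 CPM at the low dose, 6046 ± 44.5 CPM at the medium dose and 6149 ± 321 CPM at the high dose (SD, n = 2 each). Samul-tang gave 5922 ± 36.8 CPM, 6124 ± 180 CPM and 6320 ± 77.8 CPM at the low, medium and high dose (SD, n = 2 each). In each of these extracts the high-dose libraries lay above the low-dose ones without overlap, but the high-dose Sagunja-tang libraries were far apart, at 5922 and 6376 CPM. With Palmul-tang the sum was 5965 ± 116 CPM, 6183 ± 130 CPM and 6392 ± 69.1 CPM at the low, medium and high dose (SD, n = 3 each). Sibjeondaebo-tang gave 5888 ± 100 CPM, 6180 ± 109 CPM and 6485 ± 229 CPM (SD, n = 3 each). Here too the high-dose libraries lay above all low-dose ones, and they lay above the vehicle libraries as well, which ranged from 5938 to 6295 CPM.

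**Figure D1:**
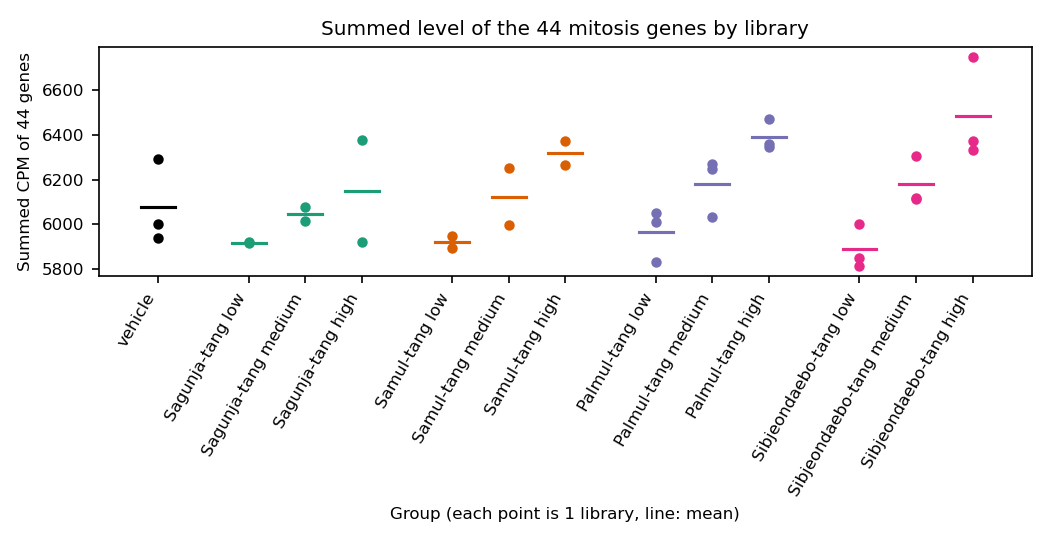
The vertical axis gives the summed CPM of the 44 genes, each point is 1 library and each line the mean of its group; the axis does not start at 0. The means climb with dose in each extract, to 6485 CPM at the high dose of Sibjeondaebo-tang, against 6078 CPM in vehicle.

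The dose comparison within an extract leaves the vehicle libraries out, and it asks which of the genes differ between 500 and 20 µg/mL. With Sibjeondaebo-tang 29 of the 44 genes rose and 1, CENPE, fell, whereas 15.5% of all genes tested rose and 14.3% fell. With Palmul-tang 14 rose and none fell, against 7.66% of all genes higher and 6.75% lower. With Samul-tang 2 rose, against 4.10% of all genes, a share like that of the background, and none fell (3.43%). With Sagunja-tang 7 rose, against 3.33% of all genes, and none fell (3.86%). The differences were small: the median log2 fold change over the 44 genes was 0.14 with Sibjeondaebo-tang, 0.10 with Palmul-tang, 0.09 with Samul-tang and 0.09 with Sagunja-tang, while the medians of all genes lay between -0.02 and 0.01 in every comparison made. The number of genes with a fold change above 0 was 40 with Sibjeondaebo-tang, 42 with Palmul-tang, 40 with Samul-tang and 38 with Sagunja-tang, where 48.4%, 50.1%, 50.6% and 50.1% of all genes tested were above 0 with the same extracts. These 4 comparisons share no library. CDC20 was called higher in all 4, PTTG1 and CDCA8 in 3, 13 genes in 2 and 16 genes in 1. With no extract 12 genes were called higher, 1 of which, CENPE, was called lower. With fold changes rounded to 2 decimals, 30 genes were above 0 in all 4, a value that rounds to 0 not being counted. The same was not counted over all genes, so these counts across extracts have no background share beside them. The test was edgeR's quasi-likelihood test with Benjamini-Hochberg adjustment over all genes tested at a threshold of 0.05, and fold changes below are log2 values ± SE.

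Single libraries moved these counts. For Sagunja-tang, leaving out a library leaves 1 in its group. Its 7 higher genes became fewer without high-dose replicate 2 or either low-dose library. Without high-dose replicate 3 more rose and some fell. Calls over all genes tested shrank and grew in the same cases. For Samul-tang the 2 calls were lost without any 1 of its 4 libraries, and fewer of all genes tested were called as well. For Palmul-tang the 14 became 9 without high-dose replicate 1 and 7 without low-dose replicate 2. Of all genes 904 and 882 were then higher, against 1336 with every library. For Sibjeondaebo-tang the 29 became 18 without high-dose replicate 1 and 17 without low-dose replicate 3, with CENPE lower in both. Of all genes 2112 and 2085 were then higher, against 2707 with every library. Taken gene by gene, 15 of the 29 rises with Sibjeondaebo-tang and 6 of the 14 with Palmul-tang stayed called without any 1 library of the 2 groups compared, and 0 with Samul-tang or Sagunja-tang.

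**Figure D2:**
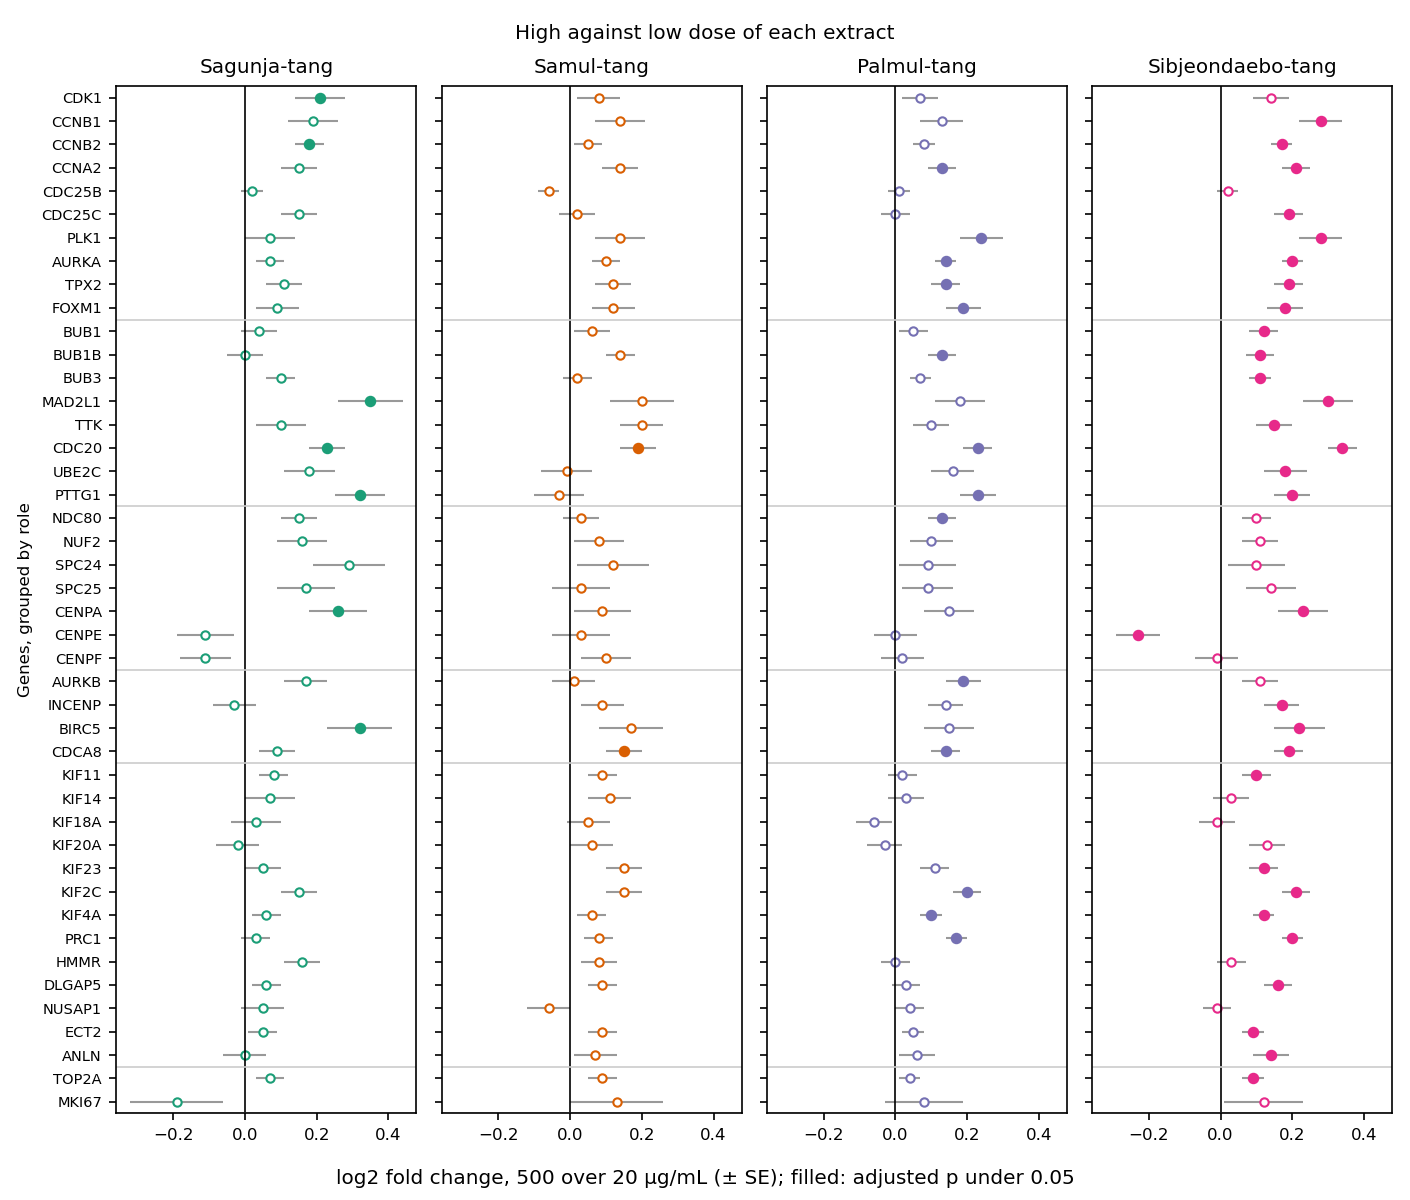
Each panel gives, for 1 extract, the log2 fold change of the 44 genes at 500 over 20 µg/mL with its SE, genes grouped by role, and filled points are called. Points right of 0 prevail in each panel (38 to 42 of 44 genes), and filled points number 7, 2, 14 and 30 from left to right.

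Entry into mitosis is set off by CDK1 bound to cyclin B, which the CDC25 phosphatases switch on and which PLK1 and AURKA promote. Of the 10 genes of this role, 8 rose with dose with Sibjeondaebo-tang, 5 with Palmul-tang, 2 with Sagunja-tang and 0 with Samul-tang. For this and the roles below, the shares of all genes that rose were 15.5%, 7.66%, 3.33% and 4.10% in that order. The 0 of 10 with Samul-tang is near its share.

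CDK1, the kinase itself, had 79.9, 74.3 and 70.3 CPM in vehicle libraries. With Sagunja-tang, CDK1 stood at 98.3 and 96.1 CPM at the low dose, 102 and 96.6 CPM at the medium dose and 122 and 103 CPM at the high dose. With Samul-tang, CDK1 was at 97 and 93.5 CPM at the low dose, 98.8 and 98.3 CPM at the medium dose and 102 and 100 CPM at the high dose. The high-dose libraries lay above the low-dose ones with both extracts, and the 122 CPM belongs to the library that stood apart. With Palmul-tang, CDK1 measured 91.5, 100 and 92.5 CPM at the low dose, 101, 94.4 and 90 CPM at the medium dose and 101, 96.3 and 102 CPM at the high dose. Sibjeondaebo-tang libraries held 94.6, 90.9 and 99.7 CPM at the low dose, 95.8, 100 and 101 CPM at the medium dose and 102, 106 and 106 CPM at the high dose. High and low doses overlapped with Palmul-tang and not with Sibjeondaebo-tang, and the lowest extract library, at 90 CPM, lay above the highest vehicle library. Between doses CDK1 rose with Sagunja-tang (0.21 ± 0.07, adjusted p = 0.0456), a call that was lost at 0.08 (adjusted p = 0.758) without high-dose replicate 2 and also without low-dose replicate 2 (0.22) or 3 (0.20). The difference was 0.14 ± 0.05 with Sibjeondaebo-tang (adjusted p = 0.0522).

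CCNB1 encodes cyclin B1, the partner of CDK1. Vehicle libraries held 144, 137 and 127 CPM of CCNB1. With Sagunja-tang, CCNB1 stood at 157 and 153 CPM at the low dose, 151 and 150 CPM at the medium dose and 194 and 161 CPM at the high dose. With Samul-tang, CCNB1 was at 149 and 148 CPM at the low dose, 162 and 156 CPM at the medium dose and 170 and 159 CPM at the high dose. The 194 CPM again belongs to high-dose replicate 2 of Sagunja-tang. With Palmul-tang, CCNB1 measured 152, 165 and 149 CPM at the low dose, 165, 168 and 144 CPM at the medium dose and 173, 168 and 169 CPM at the high dose. With Sibjeondaebo-tang, CCNB1 reached 157, 149 and 152 CPM at the low dose, 165, 164 and 174 CPM at the medium dose and 185, 182 and 187 CPM at the high dose. The high dose lay above the low dose without overlap with each extract, and the rise was called with Sibjeondaebo-tang (0.28 ± 0.06, adjusted p = 0.000376). CCNB2, the second cyclin B, whose 4 CCAAT matches are printed above, rose with Sibjeondaebo-tang (0.17 ± 0.03, adjusted p = 6.41e-05) and with Sagunja-tang (0.18 ± 0.04, adjusted p = 0.00275), the Sagunja-tang call being lost without replicate 2 of the high (0.17) or low dose (0.15).

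CCNA2, cyclin A2, acts from S phase into early mitosis, and had 127, 126 and 142 CPM in vehicle libraries. With Sagunja-tang, CCNA2 stood at 127 and 130 CPM at the low dose, 130 and 133 CPM at the medium dose and 147 and 139 CPM at the high dose. With Samul-tang, CCNA2 was at 125 and 128 CPM at the low dose, 132 and 136 CPM at the medium dose and 139 and 140 CPM at the high dose. High-dose values exceeded low-dose ones and did not overlap them. With Palmul-tang, CCNA2 measured 134, 126 and 131 CPM at the low dose, 141, 132 and 140 CPM at the medium dose and 143, 140 and 146 CPM at the high dose. With Sibjeondaebo-tang, CCNA2 reached 133, 129 and 124 CPM at the low dose, 137, 132 and 136 CPM at the medium dose and 153, 150 and 143 CPM at the high dose. CCNA2 rose with dose with Palmul-tang (0.13 ± 0.04, adjusted p = 0.0279) and with Sibjeondaebo-tang (0.21 ± 0.04, adjusted p = 0.000216), the Palmul-tang call being lost without high-dose replicate 1 or 3 or low-dose replicate 2 or 3 (0.10 to 0.13).

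CDC25B, a phosphatase that activates CDK1, was the flattest of the 16 genes for which every library is given. Its level was 139, 139 and 132 CPM in vehicle libraries. With Sagunja-tang, CDC25B stood at 133 and 133 CPM at the low dose, 133 and 134 CPM at the medium dose and 137 and 132 CPM at the high dose. With Samul-tang, CDC25B was at 135 and 135 CPM at the low dose, 136 and 136 CPM at the medium dose and 130 and 130 CPM at the high dose. No dose of either stood clear of vehicle except the high dose of Samul-tang, which lay just under it. With Palmul-tang, CDC25B measured 135, 135 and 134 CPM at the low dose, 132, 134 and 137 CPM at the medium dose and 137, 137 and 132 CPM at the high dose. With Sibjeondaebo-tang, CDC25B held 135, 136 and 133 CPM at the low dose, 138, 137 and 137 CPM at the medium dose and 140, 137 and 132 CPM at the high dose. Its log2 differences between doses were 0.02 ± 0.03, 0.01 ± 0.03, -0.06 ± 0.03 and 0.02 ± 0.03 with Sibjeondaebo-tang, Palmul-tang, Samul-tang and Sagunja-tang, none of them called. Its relative CDC25C rose with dose with Sibjeondaebo-tang (0.19 ± 0.04, adjusted p = 0.00152), and with Palmul-tang its difference was 0.00 ± 0.04.

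PLK1, a kinase needed for entry, spindle assembly and exit, had 174, 173 and 192 CPM in vehicle libraries. With Sagunja-tang, PLK1 stood at 149 and 163 CPM at the low dose, 157 and 166 CPM at the medium dose and 156 and 172 CPM at the high dose. With Samul-tang, PLK1 was at 156 and 152 CPM at the low dose, 160 and 174 CPM at the medium dose and 165 and 175 CPM at the high dose. Low-dose libraries of both lay below all vehicle libraries, and their highest high-dose library, at 175 CPM, below the highest vehicle library. With Palmul-tang, PLK1 measured 161, 156 and 163 CPM at the low dose, 173, 154 and 173 CPM at the medium dose and 197, 182 and 190 CPM at the high dose. With Sibjeondaebo-tang, PLK1 reached 162, 159 and 156 CPM at the low dose, 186, 166 and 167 CPM at the medium dose and 208, 190 and 183 CPM at the high dose. Here the high dose lay above the low dose without overlap and overlapped the vehicle range. PLK1 rose with dose with Palmul-tang (0.24 ± 0.06, adjusted p = 0.00333) and Sibjeondaebo-tang (0.28 ± 0.06, adjusted p = 0.000329). Its gene overlaps 2 genes on the opposite strand, and whether counting used strand is not given in the sources used here.

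**Figure D3:**
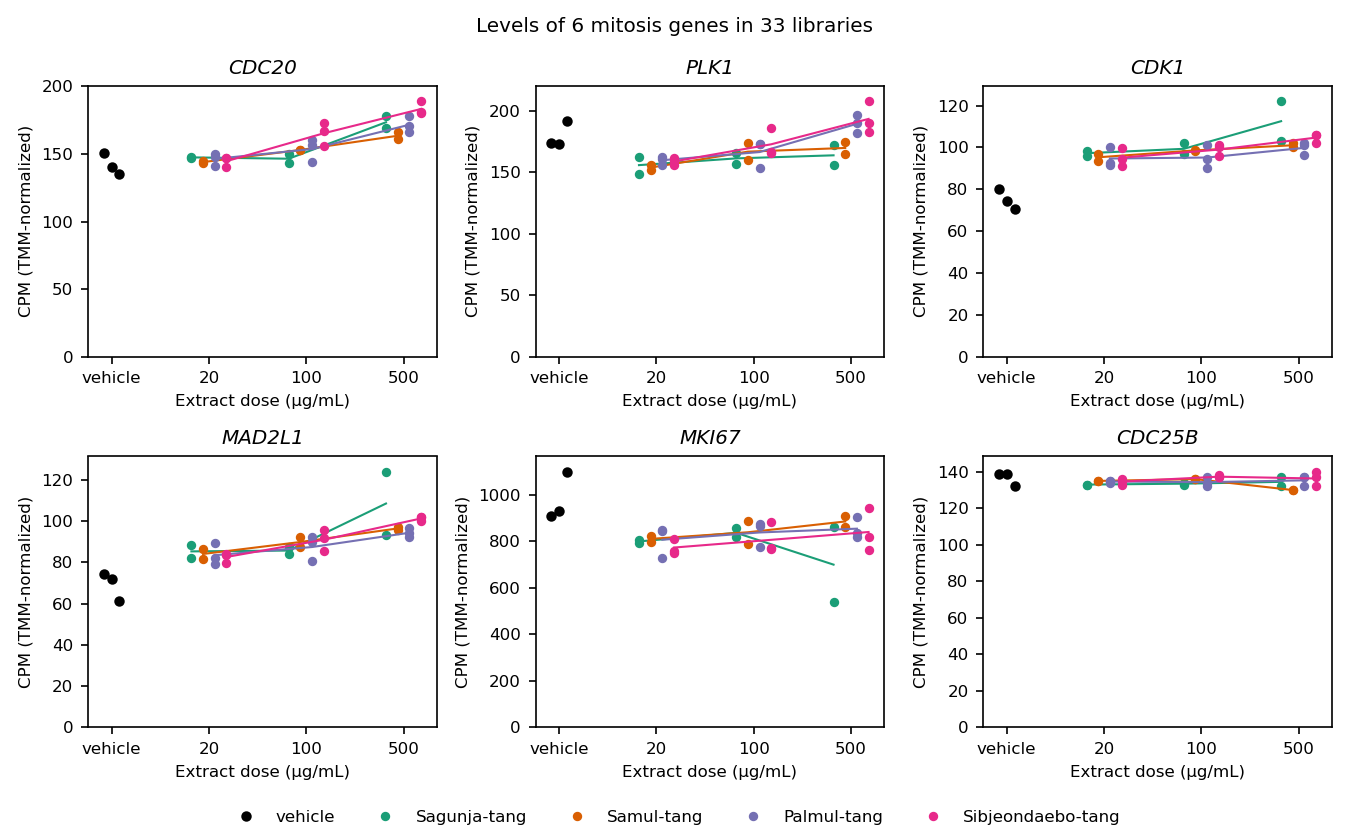
Each panel shows 1 gene, with CPM from 0 on the vertical axis and dose on the horizontal axis, a point per library and lines through the means of each extract. CDC20 and PLK1 climb with dose, CDK1 and MAD2L1 lie above vehicle at each dose, MKI67 lies mostly below vehicle and has 1 Sagunja-tang library at 539 CPM, and CDC25B is flat.

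AURKA, the Aurora kinase of centrosomes and spindle poles, had 160, 155 and 162 CPM in vehicle libraries. With Sagunja-tang, AURKA stood at 148 and 148 CPM at the low dose, 152 and 157 CPM at the medium dose and 152 and 159 CPM at the high dose. With Samul-tang, AURKA was at 148 and 149 CPM at the low dose, 153 and 159 CPM at the medium dose and 157 and 161 CPM at the high dose. Doses of both climbed toward the vehicle level without passing it. With Palmul-tang, AURKA measured 154, 154 and 157 CPM at the low dose, 162, 164 and 168 CPM at the medium dose and 173, 172 and 169 CPM at the high dose. With Sibjeondaebo-tang, AURKA reached 161, 155 and 149 CPM at the low dose, 171, 161 and 165 CPM at the medium dose and 188, 172 and 172 CPM at the high dose. These high-dose libraries lay above all vehicle libraries. AURKA rose with dose with Palmul-tang (0.14 ± 0.03, adjusted p = 0.00531) and with Sibjeondaebo-tang (0.20 ± 0.03, adjusted p = 9.48e-05). TPX2, which binds and activates AURKA on the spindle, rose with the same 2 extracts, by 0.14 and 0.19, and the Palmul-tang call was lost without any 1 of its high-dose libraries or without low-dose replicate 1 or 2 (0.10 to 0.14).

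FOXM1, the transcription factor that drives many genes of this group, had 210, 212 and 235 CPM in vehicle libraries. With Sagunja-tang, FOXM1 stood at 188 and 189 CPM at the low dose, 197 and 200 CPM at the medium dose and 188 and 212 CPM at the high dose. With Samul-tang, FOXM1 was at 192 and 189 CPM at the low dose, 193 and 215 CPM at the medium dose and 207 and 208 CPM at the high dose. Low-dose libraries of both lay below all vehicle libraries. With Palmul-tang, FOXM1 measured 204, 181 and 196 CPM at the low dose, 199, 193 and 209 CPM at the medium dose and 224, 223 and 214 CPM at the high dose. With Sibjeondaebo-tang, FOXM1 reached 196, 197 and 188 CPM at the low dose, 219, 206 and 203 CPM at the medium dose and 232, 216 and 211 CPM at the high dose. At the high dose these 2 extracts overlapped vehicle, and at the low dose they lay below it. FOXM1 rose with dose with Palmul-tang (0.19 ± 0.05, adjusted p = 0.0148) and Sibjeondaebo-tang (0.18 ± 0.05, adjusted p = 0.00851). The Palmul-tang call was lost without high-dose replicate 1 or 2 or low-dose replicate 2 (0.13 to 0.18), and that of Sibjeondaebo-tang without high-dose replicate 1 or low-dose replicate 3 (0.14 and 0.15).

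The spindle checkpoint holds back the anaphase-promoting complex (APC/C) until every chromosome is attached, by trapping its activator CDC20. All 8 genes of this role rose with dose with Sibjeondaebo-tang, 3 with Palmul-tang, 3 with Sagunja-tang and 1 with Samul-tang.

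CDC20 had 151, 140 and 135 CPM in vehicle libraries. With Sagunja-tang, CDC20 stood at 147 and 148 CPM at the low dose, 143 and 150 CPM at the medium dose and 178 and 169 CPM at the high dose. With Samul-tang, CDC20 was at 145 and 143 CPM at the low dose, 153 and 153 CPM at the medium dose and 161 and 166 CPM at the high dose. Low-dose libraries lay within the vehicle range and high-dose libraries above it. With Palmul-tang, CDC20 measured 148, 150 and 141 CPM at the low dose, 160, 157 and 144 CPM at the medium dose and 178, 171 and 166 CPM at the high dose. With Sibjeondaebo-tang, CDC20 reached 147, 140 and 147 CPM at the low dose, 173, 156 and 167 CPM at the medium dose and 189, 180 and 181 CPM at the high dose. Again low-dose libraries lay within the vehicle range and high-dose ones above it, and the doses did not overlap. CDC20 rose with Sibjeondaebo-tang (0.34 ± 0.04, adjusted p = 1e-06), with Palmul-tang (0.23 ± 0.04, adjusted p = 0.000461), with Samul-tang (0.19 ± 0.05, adjusted p = 0.0305) and with Sagunja-tang (0.23 ± 0.05, adjusted p = 0.00943). With Samul-tang the call was lost without any 1 of its 4 libraries (0.15 to 0.20), and with Sagunja-tang without high-dose replicate 2 (0.19, adjusted p = 0.205), low-dose replicate 2 (0.22) or low-dose replicate 3 (0.23).

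UBE2C, the ubiquitin-conjugating enzyme of the APC/C, had 104, 106 and 111 CPM in vehicle libraries. With Sagunja-tang, UBE2C stood at 97.3 and 104 CPM at the low dose, 98.9 and 108 CPM at the medium dose and 113 and 115 CPM at the high dose. With Samul-tang, UBE2C was at 104 and 110 CPM at the low dose, 104 and 113 CPM at the medium dose and 97.2 and 116 CPM at the high dose. The Samul-tang libraries split more by replicate than by dose. With Palmul-tang, UBE2C measured 110, 107 and 104 CPM at the low dose, 114, 103 and 112 CPM at the medium dose and 122, 113 and 123 CPM at the high dose. With Sibjeondaebo-tang, UBE2C reached 103, 109 and 104 CPM at the low dose, 112, 110 and 120 CPM at the medium dose and 126, 116 and 115 CPM at the high dose. UBE2C rose with dose with Sibjeondaebo-tang (0.18 ± 0.06, adjusted p = 0.0174), a call lost without high-dose replicate 1 or low-dose replicate 1 or 3 (0.13 to 0.16). With Palmul-tang, whose high and low doses did not overlap, the difference was 0.16 ± 0.06 (adjusted p = 0.0549).

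BUB1, a checkpoint kinase at the kinetochore, had 101, 99.1 and 108 CPM in vehicle libraries. With Sagunja-tang, BUB1 stood at 99.6 and 95.3 CPM at the low dose, 100 and 100 CPM at the medium dose and 95.3 and 105 CPM at the high dose. With Samul-tang, BUB1 was at 97 and 102 CPM at the low dose, 99.7 and 106 CPM at the medium dose and 99.7 and 108 CPM at the high dose. Each of these groups overlapped vehicle. With Palmul-tang, BUB1 measured 101, 98.6 and 107 CPM at the low dose, 105, 102 and 111 CPM at the medium dose and 106, 105 and 105 CPM at the high dose. With Sibjeondaebo-tang, BUB1 reached 101, 102 and 99.5 CPM at the low dose, 109, 104 and 107 CPM at the medium dose and 115, 110 and 106 CPM at the high dose. BUB1 rose with dose with Sibjeondaebo-tang (0.12 ± 0.04, adjusted p = 0.0289), which did not hold without high-dose replicate 1 or 2 or low-dose replicate 1 or 3 (0.09 to 0.13).

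MAD2L1, the checkpoint protein that binds CDC20, rose by 0.35 ± 0.09 with Sagunja-tang and 0.30 ± 0.07 with Sibjeondaebo-tang. Its level in high-dose Sagunja-tang was 124 and 93.2 CPM, against 88.6 and 82.1 CPM at the low dose, and without high-dose replicate 2 the difference was 0.12 (adjusted p = 0.678). The call was also lost without low-dose replicate 2 (0.40) or 3 (0.29). PTTG1, securin, which guards separase until anaphase, rose with Sagunja-tang, Palmul-tang and Sibjeondaebo-tang, by 0.32 ± 0.07, 0.23 ± 0.05 and 0.20 ± 0.05, and gave -0.03 ± 0.07 with Samul-tang. PTTG1 has near-identical copies in the genome, so its counts are uncertain, and its Sagunja-tang call was lost without high-dose replicate 2 (0.25) or low-dose replicate 2 (0.26). BUB1B, which with MAD2L1 forms the checkpoint complex, rose with Palmul-tang and Sibjeondaebo-tang. BUB3, its partner, and the checkpoint kinase TTK rose with Sibjeondaebo-tang. Each of these calls was lost on leaving out 1 library or another, BUB3 only without low-dose replicate 3 (0.09). With Samul-tang, TTK gave 0.20 ± 0.06 (adjusted p = 0.0615).

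The kinetochore joins chromosomes to microtubules. Among its 7 genes calls were few: CENPA, the histone that marks centromeres, rose with Sagunja-tang (0.26 ± 0.08, adjusted p = 0.0487) and Sibjeondaebo-tang (0.23 ± 0.07, adjusted p = 0.00845), NDC80 rose with Palmul-tang (0.13 ± 0.04, adjusted p = 0.0346), and CENPE fell with Sibjeondaebo-tang. With Sibjeondaebo-tang 1 rise and 1 fall among 7 genes are shares like those of all genes, 15.5% and 14.3%. Of all genes, 7.66% rose with Palmul-tang and 3.33% with Sagunja-tang. The Sagunja-tang call for CENPA was lost without any 1 of its 4 libraries (0.23 to 0.29; adjusted p = 0.33 without high-dose replicate 2), with RLE scaling, with length and GC trends removed and with only the groups compared. That of NDC80 was lost without low-dose replicate 1, 2 or 3 or high-dose replicate 2 or 3 (0.10 to 0.14). NUF2, SPC24 and SPC25, the other parts of the NDC80 complex, were not called and had fold changes between 0.03 and 0.29.

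CENPE, a kinesin that moves chromosomes to the spindle equator, had 69.2, 70.1 and 74.1 CPM in vehicle libraries. With Sagunja-tang, CENPE stood at 66.9 and 67.2 CPM at the low dose, 70 and 68.1 CPM at the medium dose and 56.5 and 67.3 CPM at the high dose. With Samul-tang, CENPE was at 69.5 and 66.4 CPM at the low dose, 65.5 and 68.4 CPM at the medium dose and 68.4 and 70 CPM at the high dose. The 56.5 CPM belongs to the library that stood apart. With Palmul-tang, CENPE measured 63.8, 64.1 and 71.6 CPM at the low dose, 69.5, 59.9 and 74.5 CPM at the medium dose and 64.8, 66.3 and 68.9 CPM at the high dose. With Sibjeondaebo-tang, CENPE gave 68.6, 67.1 and 65.1 CPM at the low dose, 63.6, 65.3 and 59.5 CPM at the medium dose and 62.1, 55 and 54.5 CPM at the high dose. With Sibjeondaebo-tang the high-dose libraries lay below all low-dose ones, and CENPE fell with dose (-0.23 ± 0.06, adjusted p = 0.00936), which did not hold without high-dose replicate 3 (-0.19, adjusted p = 0.0551). No other extract gave a call for CENPE between doses.

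CENPF, a large kinetochore protein that builds up in G2, had 291, 287 and 317 CPM in vehicle libraries. With Sagunja-tang, CENPF stood at 306 and 284 CPM at the low dose, 301 and 285 CPM at the medium dose and 237 and 309 CPM at the high dose. With Samul-tang, CENPF was at 286 and 285 CPM at the low dose, 287 and 295 CPM at the medium dose and 310 and 304 CPM at the high dose. The lowest of these, 237 CPM, was high-dose replicate 2 of Sagunja-tang. With Palmul-tang, CENPF measured 277, 273 and 300 CPM at the low dose, 290, 288 and 296 CPM at the medium dose and 293, 287 and 280 CPM at the high dose. With Sibjeondaebo-tang, CENPF gave 281, 270 and 278 CPM at the low dose, 285, 276 and 280 CPM at the medium dose and 291, 259 and 275 CPM at the high dose. CENPF differed between doses by -0.01 ± 0.06, 0.02 ± 0.06, 0.10 ± 0.07 and -0.11 ± 0.07 with Sibjeondaebo-tang, Palmul-tang, Samul-tang and Sagunja-tang, with no call.

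The chromosomal passenger complex corrects faulty attachments and later directs cell division; its 4 genes are AURKB, INCENP, BIRC5 and CDCA8. With dose 3 of the 4 rose with Sibjeondaebo-tang, 2 with Palmul-tang, 1 with Sagunja-tang and 1 with Samul-tang.

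AURKB, its kinase, had 42.7, 41.7 and 43.1 CPM in vehicle libraries. With Sagunja-tang, AURKB stood at 46.9 and 48.7 CPM at the low dose, 48.1 and 51.8 CPM at the medium dose and 55.2 and 52.6 CPM at the high dose. With Samul-tang, AURKB was at 46.9 and 48.5 CPM at the low dose, 51.8 and 45.4 CPM at the medium dose and 47.4 and 48.4 CPM at the high dose. All of these lay above all vehicle libraries. With Palmul-tang, AURKB measured 48.8, 49.2 and 45.2 CPM at the low dose, 48, 53.8 and 50.9 CPM at the medium dose and 55.9, 53 and 54.9 CPM at the high dose. With Sibjeondaebo-tang, AURKB reached 49, 50.9 and 48.5 CPM at the low dose, 52.7, 52.8 and 48.3 CPM at the medium dose and 53.4, 54.1 and 53 CPM at the high dose. AURKB rose with dose with Palmul-tang (0.19 ± 0.05, adjusted p = 0.0067), a call lost without low-dose replicate 3 (0.16, adjusted p = 0.0582). With Sibjeondaebo-tang the difference was 0.11 ± 0.05 (adjusted p = 0.0764).

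BIRC5, survivin, which targets the complex to centromeres, had 68.3, 61.5 and 58.4 CPM in vehicle libraries. With Sagunja-tang, BIRC5 stood at 75.6 and 70.4 CPM at the low dose, 78.9 and 72.7 CPM at the medium dose and 103 and 79.6 CPM at the high dose. With Samul-tang, BIRC5 was at 70.2 and 68.4 CPM at the low dose, 79.3 and 71.4 CPM at the medium dose and 83 and 72.6 CPM at the high dose. High-dose replicate 2 of Sagunja-tang was again the extreme, at 103 CPM. With Palmul-tang, BIRC5 measured 70.3, 76.2 and 71.8 CPM at the low dose, 76.9, 82.4 and 72.4 CPM at the medium dose and 80.7, 82 and 79.7 CPM at the high dose. With Sibjeondaebo-tang, BIRC5 reached 81.2, 74.3 and 73.6 CPM at the low dose, 75.1, 81.3 and 72.5 CPM at the medium dose and 82.9, 91.9 and 91.4 CPM at the high dose. BIRC5 rose with dose with Sagunja-tang (0.32 ± 0.09, adjusted p = 0.0332), a call lost at 0.12 (adjusted p = 0.725) without high-dose replicate 2 and also without either low-dose library. It rose with Sibjeondaebo-tang too (0.22 ± 0.07, adjusted p = 0.0272), where the call was lost without replicate 2 or 3 of either dose (0.18 to 0.20). CDCA8, borealin, rose with Sibjeondaebo-tang (0.19), Palmul-tang (0.14) and Samul-tang (0.15), and INCENP, the scaffold, rose with Sibjeondaebo-tang (0.17 ± 0.05). The CDCA8 calls were lost with Samul-tang without any 1 of its 4 libraries (0.12 to 0.16) and with Palmul-tang without low-dose replicate 2 (0.10), and that of INCENP without high-dose replicate 1 (0.13) or low-dose replicate 3 (0.16).

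Of the 13 genes of the spindle, its kinesins and the midzone, 8 rose with dose with Sibjeondaebo-tang, 3 with Palmul-tang and 0 with Sagunja-tang or Samul-tang. The 0 with Sagunja-tang or Samul-tang is near the shares of all genes that rose, 3.33% and 4.10%. PRC1, which bundles the microtubules of the midzone, rose by 0.20 ± 0.03 with Sibjeondaebo-tang and 0.17 ± 0.03 with Palmul-tang. KIF2C, a kinesin that shortens microtubules at the centromere, rose by 0.21 ± 0.04 and 0.20 ± 0.04 with the same extracts. KIF4A, a chromosome-bound kinesin whose reads could be shared with a copy of the gene, rose by 0.12 and 0.10. With Sibjeondaebo-tang the calls also took in the spindle motor KIF11, the midzone motor KIF23, the spindle protein DLGAP5, and ECT2 and ANLN, which build the cleavage furrow, at 0.09 to 0.16. Of these, DLGAP5 stayed called without any 1 library of the 2 groups, and KIF11, KIF23, ECT2 and ANLN each lost the call without at least 1. The KIF4A calls were lost without low-dose replicate 3 with Sibjeondaebo-tang (0.09) and without replicate 1 or 2 of either dose with Palmul-tang (0.08 to 0.10). KIF14, KIF18A, KIF20A, HMMR and NUSAP1 had no call between doses with any extract.

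TOP2A, the topoisomerase that untangles sister chromosomes, had 441, 421 and 423 CPM in vehicle libraries. With Sagunja-tang, TOP2A stood at 496 and 475 CPM at the low dose, 508 and 476 CPM at the medium dose and 508 and 513 CPM at the high dose. With Samul-tang, TOP2A was at 486 and 484 CPM at the low dose, 488 and 502 CPM at the medium dose and 516 and 516 CPM at the high dose. All of these exceeded all vehicle libraries. With Palmul-tang, TOP2A measured 483, 493 and 484 CPM at the low dose, 517, 501 and 489 CPM at the medium dose and 503, 502 and 498 CPM at the high dose. With Sibjeondaebo-tang, TOP2A reached 482, 472 and 482 CPM at the low dose, 499, 493 and 504 CPM at the medium dose and 519, 499 and 514 CPM at the high dose. TOP2A rose with dose with Sibjeondaebo-tang (0.09 ± 0.03, adjusted p = 0.0181), which did not hold without high-dose replicate 1 or 3 or low-dose replicate 2 (0.08 to 0.09).

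MKI67 encodes Ki-67, the protein that coats mitotic chromosomes and is stained to count dividing cells. Its level was 908, 932 and 1100 CPM in vehicle libraries. With Sagunja-tang, MKI67 stood at 795 and 805 CPM at the low dose, 817 and 857 CPM at the medium dose and 539 and 861 CPM at the high dose. With Samul-tang, MKI67 was at 825 and 797 CPM at the low dose, 789 and 890 CPM at the medium dose and 864 and 908 CPM at the high dose. The value of 539 CPM, in high-dose replicate 2 of Sagunja-tang, was the lowest of all 33 libraries, and its partner held 861 CPM. With Palmul-tang, MKI67 measured 845, 727 and 850 CPM at the low dose, 866, 775 and 875 CPM at the medium dose and 907, 838 and 820 CPM at the high dose. With Sibjeondaebo-tang, MKI67 gave 811, 758 and 752 CPM at the low dose, 882, 771 and 768 CPM at the medium dose and 944, 761 and 817 CPM at the high dose. MKI67 had no call between doses, and its differences were 0.12 ± 0.11, 0.08 ± 0.11, 0.13 ± 0.13 and -0.19 ± 0.13 with Sibjeondaebo-tang, Palmul-tang, Samul-tang and Sagunja-tang.

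Per kilobase of exon, the most abundant of the 44 in vehicle libraries were TPX2 (98.5 CPM per kb), UBE2C (83.5), MKI67 (76.6), CDC20 (69.8) and TOP2A (66.6). The least abundant were NUF2 at 5.74 and CDC25C at 4.52 CPM per kb.

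Against vehicle, the question was which genes an extract shifted at each dose. All 12 comparisons share the same 3 vehicle libraries, so their values are set side by side and not counted together. At the high dose 26 of the 44 genes were higher and 2 lower with Sibjeondaebo-tang, where 20.5% of all genes were higher and 19.1% lower. With Palmul-tang 24 were higher (17.3% of all genes) and none lower (14.8%), and with Samul-tang 18 were higher (15.0%) and none lower (12.5%). With Sagunja-tang 21 were higher (18.7% of all genes) and 2 lower (18.0%). At the medium dose 16, 14, 10 and 11 were higher with Sibjeondaebo-tang, Palmul-tang, Samul-tang and Sagunja-tang, against 14.0%, 10.3%, 10.9% and 8.40% of all genes, and CENPE alone was lower, with Sibjeondaebo-tang (-0.18 ± 0.07, adjusted p = 0.0418), a call lost without vehicle replicate 2 or 3 or its own replicate 1 or 3 (-0.14 to -0.19). The shares of all genes lower at that dose were 12.0%, 9.63%, 9.27% and 8.05%. At the low dose 11, 11, 7 and 11 were higher (11.1%, 10.6%, 8.89% and 11.1% of all genes) and 4, 3, 3 and 5 lower (10.9%, 9.74%, 8.71% and 10.7%), in the same order of extracts.

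The median log2 fold change of the 44 genes against vehicle was 0.14, 0.11, 0.10 and 0.11 at the high dose with Sibjeondaebo-tang, Palmul-tang, Samul-tang and Sagunja-tang. It was 0.05, 0.07, 0.05 and 0.03 at the medium dose. At the low dose it lay between -0.01 and 0.01.

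**Figure D4:**
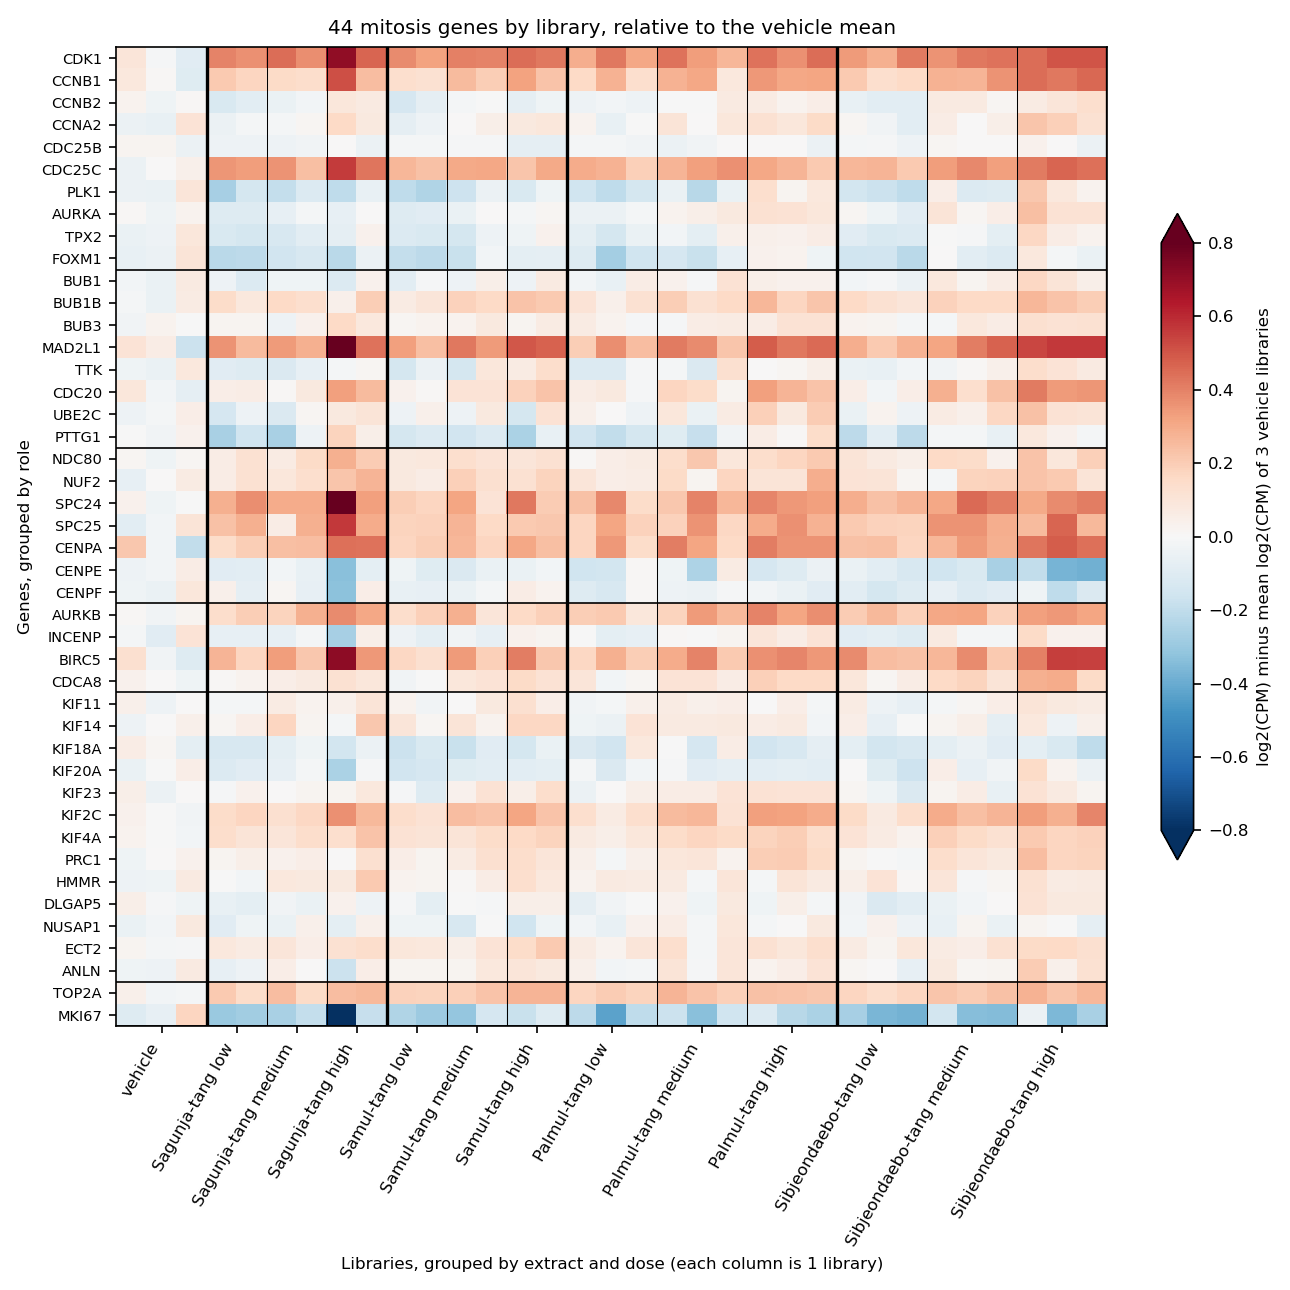
Rows are the 44 genes grouped by role, columns the 33 libraries grouped by extract and dose, and color the log2 CPM minus the mean of the vehicle libraries, clipped at 0.8 either way. CDK1, CDC25C, MAD2L1, SPC24, CENPA, BIRC5 and TOP2A are red in extract columns and MKI67 blue, deepest in 1 high-dose Sagunja-tang library.

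For 6 genes each of the 12 differences from vehicle was called, all of them against the same 3 vehicle libraries. How many of all genes were called in all 12 was not counted. CDK1 differed from vehicle by 0.34 to 0.59 over the 12 comparisons, MAD2L1 by 0.26 to 0.65, CDC25C by 0.24 to 0.49 and AURKB by 0.17 to 0.36. TOP2A differed by 0.16 to 0.27 and KIF2C by 0.11 to 0.34. Some of the calls of AURKB, KIF2C and MAD2L1 were lost on leaving out 1 library, mostly at low or medium doses, such as that of MAD2L1 with Palmul-tang without vehicle replicate 3 (0.19, adjusted p = 0.109) and that of AURKB with Samul-tang without vehicle replicate 2 (0.15, adjusted p = 0.1). At the high dose the AURKB call with Samul-tang was lost without vehicle replicate 2 (0.15, adjusted p = 0.0711) or without replicate 2 (0.19) or 3 (0.15) of the extract. At the high dose CDK1 rose with Sibjeondaebo-tang (0.48 ± 0.05, adjusted p = 1.16e-07) and with Sagunja-tang (0.59 ± 0.06, adjusted p = 9.05e-08). CDC25C had 20.1, 20.8 and 20.4 CPM with high-dose Sibjeondaebo-tang and 14.6, 15.1 and 15.5 CPM in vehicle libraries, a rise of 0.44 ± 0.05 (adjusted p = 4.07e-08). MAD2L1 had 100, 102 and 102 CPM with high-dose Sibjeondaebo-tang, against 74.3, 72 and 61.3 CPM in vehicle libraries. CCNB1 rose at the high dose by 0.44 ± 0.06 with Sibjeondaebo-tang, and CDC20 by 0.37 ± 0.04.

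By role, at the high dose with Sibjeondaebo-tang, Palmul-tang, Samul-tang and Sagunja-tang, entry genes were higher in 6, 5, 3 and 4 of 10 cases and checkpoint and APC/C genes in 5, 5, 3 and 4 of 8. Kinetochore genes were higher in 5, 5, 3 and 5 of 7 cases, passenger complex genes in 3 of 4 with each extract, and spindle genes in 6, 5, 5 and 4 of 13. Of all genes tested 20.5%, 17.3%, 15.0% and 18.7% were higher, in the same order of extracts. The kinetochore genes SPC24, SPC25 and CENPA were called higher with each extract at this dose, and with Samul-tang each of the 3 lost the call on leaving out 1 library or another (0.17 to 0.29). BUB1, TTK, CENPF, KIF11, KIF20A, INCENP, NUSAP1 and CDC25B were not called against vehicle at any dose.

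A smaller set lay below vehicle. At the low dose their numbers, given above, were shares like those of all genes lower. Those were 10.9%, 9.74%, 8.71% and 10.7% with Sibjeondaebo-tang, Palmul-tang, Samul-tang and Sagunja-tang. FOXM1 and PLK1 fell at the low dose of each extract, with log2 fold changes for FOXM1 of -0.18, -0.18, -0.20 and -0.22 and for PLK1 of -0.17, -0.16, -0.22 and -0.20 with Sibjeondaebo-tang, Palmul-tang, Samul-tang and Sagunja-tang. Vehicle replicate 3 had the highest level of both, and without it no such call remained: FOXM1 gave -0.12, -0.12, -0.15 and -0.16 and PLK1 -0.12, -0.11, -0.17 and -0.15 in the same order. FOXM1 calls were also lost without replicate 3 of Sibjeondaebo-tang, replicate 2 of Palmul-tang and either replicate of Samul-tang or Sagunja-tang, and PLK1 calls without replicate 2 or 3 of Sibjeondaebo-tang, any replicate of Palmul-tang, either of Samul-tang and replicate 2 of Sagunja-tang. PTTG1 fell at the low dose of Sibjeondaebo-tang, Palmul-tang and Sagunja-tang, at -0.16, -0.16 and -0.21. Without vehicle replicate 3 these were -0.14, -0.14 and -0.19, and not called. CCNB2 fell at the low dose of Samul-tang (-0.10) and Sagunja-tang (-0.11), where the calls were lost without vehicle replicate 1 or 3 or either own replicate (-0.06 to -0.13). TPX2 fell at the low dose of Sagunja-tang (-0.13), a call lost without vehicle replicate 3 (-0.09) or either replicate of the extract (-0.13 and -0.12), and with no filter, only the groups compared or length and GC trends removed. MKI67 fell at the low dose of Sibjeondaebo-tang (-0.34 ± 0.11, adjusted p = 0.0217), a call that was lost at -0.25 (adjusted p = 0.155) when vehicle replicate 3 was left out, and likewise without replicate 2 (-0.33) or 3 (-0.31) of the extract.

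At the high dose MKI67 fell with Sagunja-tang (-0.49 ± 0.12, adjusted p = 0.00227), but without replicate 2 of that group the difference was -0.18 (adjusted p = 0.275). CENPE fell with Sagunja-tang (-0.20 ± 0.07, adjusted p = 0.0366), and without the same library its difference was -0.08 (adjusted p = 0.606). It was not called without vehicle replicate 2 (-0.21) or 3 (-0.17) either. With Sibjeondaebo-tang CENPE fell (-0.31 ± 0.07, adjusted p = 0.000386), as did KIF18A, a kinesin that damps chromosome movement (-0.13 ± 0.05, adjusted p = 0.0493). The KIF18A call was lost with DESeq2 (-0.13, adjusted p = 0.0641) and without vehicle replicate 1 or 2 or Sibjeondaebo-tang replicate 2 or 3 (-0.10 to -0.14).

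Leaving out a library changed several counts against vehicle, and in each case named here fewer of all genes tested were called higher as well. At the high dose the 18 higher genes of Samul-tang became 9 without its replicate 2. At the medium dose the 11 of Sagunja-tang became 4 without its replicate 2 and 5 without its replicate 3 or without vehicle replicate 2 or 3, and the 10 of Samul-tang became 4 without its replicate 2. At the low dose the 11 higher genes of Sibjeondaebo-tang became 6 without vehicle replicate 2 or 3 or its own replicate 1, and 8 without its replicate 3. The 11 of Palmul-tang became 5 or 6 when vehicle replicate 2 or 3 was left out, and 7 or 4 when replicate 1 or 2 of the extract was. For Samul-tang, leaving out vehicle replicate 2 gave 4 in place of 7, and leaving out vehicle replicate 3 or either library of the extract gave 3. For Sagunja-tang the 11 became 6 (with 6 lower) when vehicle replicate 2 was dropped and 8 when vehicle replicate 3 was, and 3 or 5 when replicate 2 or 3 of the extract was.

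Within the group, the dose difference ran with exon length with Sibjeondaebo-tang, Palmul-tang and Sagunja-tang, and not with Samul-tang. Over the 44 genes the Spearman correlation of the high-over-low fold change with exon length was -0.42 with Sibjeondaebo-tang, -0.39 with Palmul-tang, 0.15 with Samul-tang and -0.66 with Sagunja-tang, as a description across genes that share libraries. Without high-dose replicate 2 the Sagunja-tang value was -0.27, and without any other 1 of its libraries it lay between -0.68 and -0.62. Without 1 library the Palmul-tang value ranged from -0.51 to -0.20, the latter without low-dose replicate 3. That of Sibjeondaebo-tang ranged from -0.51 to -0.28, the latter without high-dose replicate 2, and that of Samul-tang from 0.01 to 0.22. Over all genes tested, with every library, the correlations were 0, -0.08, 0.02 and -0.21 with Sibjeondaebo-tang, Palmul-tang, Samul-tang and Sagunja-tang. The 22 shorter genes (up to 3936 bases) had a median fold change of 0.18, 0.13, 0.08 and 0.16 with Sibjeondaebo-tang, Palmul-tang, Samul-tang and Sagunja-tang, and the 22 longer genes (from 3958 bases) had 0.12, 0.06, 0.09 and 0.04. Of the called rises, 14, 9, 2 and 6 were among the shorter genes and 15, 5, 0 and 1 among the longer ones. Of all genes tested 15.5%, 7.66%, 4.10% and 3.33% rose. The 0 and 1 among the longer genes with Samul-tang and Sagunja-tang are near those shares. With length and GC trends removed from each library, 21, 16, 3 and 5 genes rose with dose. Of all 17432 genes tested, 2569, 1567, 829 and 624 were then higher, and the 3 with Samul-tang is near that share. MKI67, CENPF and CENPE, the 3 longest of the group, were also those furthest below vehicle in high-dose replicate 2 of Sagunja-tang, the library whose deviations ran most with length, and the part of length in these differences was otherwise not tested.

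**Figure D5:**
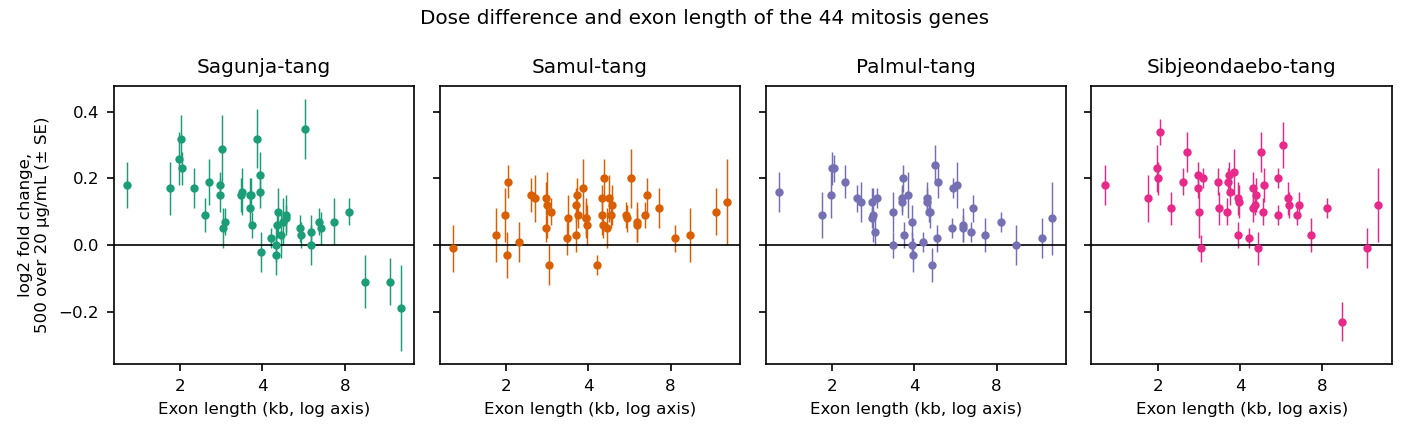
Each panel plots, for 1 extract, the log2 fold change of the 44 genes at 500 over 20 µg/mL (± SE) against exon length in kb on a log axis. With Sagunja-tang the points slope downward (Spearman -0.66, and -0.27 without high-dose replicate 2), and with Samul-tang they do not (0.15).

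Extracts whose sample codes begin alike were compared with each other at 500 µg/mL. With Samul-tang 3 genes were lower than with Sagunja-tang, against 1.92% of all genes, and none higher, against 3.55%. The 3 were CDC25C (-0.23 ± 0.05, adjusted p = 0.0167), PTTG1 (-0.26 ± 0.07, adjusted p = 0.0228) and CCNB2 (-0.12 ± 0.04, adjusted p = 0.0421). CDC25C had 17.6 and 18.6 CPM with Samul-tang, against 22.2 and 20.3 CPM with Sagunja-tang. The calls of CDC25C, PTTG1 and CCNB2 were lost without replicate 2 of high-dose Sagunja-tang or replicate 2 of high-dose Samul-tang. That of CCNB2 was also lost without Samul-tang replicate 3 (-0.15). Fewer of all genes tested were called in those cases as well. Without Sagunja-tang replicate 3 there were calls in both directions, and more of all genes tested were called too. Each of these fits left 1 library in a group. With Sibjeondaebo-tang 1 gene was higher than with Palmul-tang, against 0.350% of all genes, and none lower, against 3.52%. It was CDC25C (0.18 ± 0.04, adjusted p = 0.0148), at 20.1, 20.8 and 20.4 CPM with Sibjeondaebo-tang and 18.7, 18.2 and 17.4 CPM with Palmul-tang. That call was lost without Sibjeondaebo-tang replicate 2 (0.17) or Palmul-tang replicate 3 (0.15).

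Whether the dose difference itself differed between extracts was tested as an interaction. No gene of the 44 was called for Sibjeondaebo-tang against Palmul-tang (1.45% of all genes in either direction) or for Samul-tang against Sagunja-tang (0.138%) by edgeR. At an unadjusted p under 0.05 there were 5 (CCNB2, CENPE, KIF20A, DLGAP5 and CDC25C) and 4 (CCNB2, BUB1B, CENPF and PTTG1), and DESeq2 called 0 and 1. For CDC20 the dose difference was greater by 0.11 with Sibjeondaebo-tang than with Palmul-tang (95% interval -0.01 to 0.23), and for Samul-tang minus Sagunja-tang it was -0.05 (-0.21 to 0.11). The widest gap was that of PTTG1, at -0.35 for Samul-tang minus Sagunja-tang (-0.56 to -0.14, adjusted p = 0.176). The counts of 29 and 14 called genes are therefore no test of a difference between Sibjeondaebo-tang and Palmul-tang. Leaving out replicate 3 of high-dose Sagunja-tang left 1 library in that group. The Samul-tang interaction then gave calls in both directions, and more of all genes tested were called too.

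Other genes of the cell cycle were counted in the same way, against shares of all genes of 15.5%, 7.66%, 4.10% and 3.33% higher and 14.3%, 6.75%, 3.43% and 3.86% lower with Sibjeondaebo-tang, Palmul-tang, Samul-tang and Sagunja-tang. Leaving out high-dose replicate 2 of Sagunja-tang left 1 library in that group and fewer calls over all genes tested. No call in the lists that follow then remained with that extract. Of 50 further mitotic genes 28 rose with dose with Sibjeondaebo-tang, 21 with Palmul-tang, 3 with Samul-tang and 11 with Sagunja-tang, and 1, CENPI, fell, with Palmul-tang (-0.15, a call lost without any 1 of its high-dose libraries or without low-dose replicate 2 or 3). The 3 of 50 with Samul-tang is a share like that of all genes. Leaving out 1 library, the rises ranged from 26 to 28, 12 to 18, 0 to 2 and 0 to 17 in that order. The median fold changes of these 50 were 0.14, 0.12, 0.09 and 0.12. CDCA5, sororin, which protects sister cohesion, rose with Sibjeondaebo-tang (0.30), Palmul-tang (0.22) and Sagunja-tang (0.25). MYBL2, the B-MYB factor that activates late cell cycle genes, rose with Sibjeondaebo-tang (0.31 ± 0.04, adjusted p = 9.36e-07) and Palmul-tang (0.31 ± 0.04, adjusted p = 2.29e-06). UBE2S, which extends ubiquitin chains for the APC/C, rose with Sibjeondaebo-tang (0.32), and SPAG5 and NEK2 rose with Samul-tang (0.18 and 0.24). With Samul-tang SPAG5 lost the call without low-dose replicate 2 or high-dose replicate 3 and NEK2 without any 1 of the 4 libraries. MYBL2, UBE2S and NEK2 were also called higher with Sagunja-tang, and each of these calls was lost without replicate 2 of either dose. That of MYBL2 was lost as well without replicate 3 of the high (0.15) or low dose (0.18), and that of NEK2 without low-dose replicate 3 (0.16).

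Genes that act earlier in the cycle were counted too. Of 14 genes of entry into S phase, 6, 4, 1 and 3 rose with Sibjeondaebo-tang, Palmul-tang, Samul-tang and Sagunja-tang and none fell, among them CDC25A, the phosphatase of the G1 to S step, at 0.35, 0.31 and 0.28 with the first 3 extracts. With Samul-tang the 1 of 14 is near the share of all genes, and its CDC25A call was lost without high-dose replicate 2 or either low-dose library. Of 12 genes of the DREAM and MuvB complexes, a list that shares MYBL2 with the list above and FOXM1 with the 44, 6, 4, 0 and 1 rose. RBL2, the p130 pocket protein of DREAM, fell with Sibjeondaebo-tang (-0.25 ± 0.04, adjusted p = 4.56e-05) and Palmul-tang (-0.13 ± 0.04, adjusted p = 0.0322), the Palmul-tang call being lost without replicate 1 of either dose, high-dose replicate 2 or low-dose replicate 3. Of 16 subunits and regulators of the APC/C, 4, 1, 0 and 0 rose, with FBXO5, which restrains the APC/C, at 0.21 with Palmul-tang and FZR1, its other activator, at 0.14 with Sibjeondaebo-tang. These 1, 0 and 0 of 16 with Palmul-tang, Samul-tang and Sagunja-tang are shares like those of all genes, the FBXO5 call was lost without low-dose replicate 1 or 2 or high-dose replicate 3, and that of FZR1 without high-dose replicate 1, where 1 of the 16 rose with Sibjeondaebo-tang.

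Of 15 genes that inhibit cyclin-dependent kinases or accompany growth arrest, none rose with dose and 3, 5, 4 and 3 fell with Sibjeondaebo-tang, Palmul-tang, Samul-tang and Sagunja-tang. BTG2, an antiproliferative gene induced by p53, had fold changes of -0.56, -0.63, -0.55 and -0.38, all called, though that of Sagunja-tang not without its high-dose replicate 2. The 3 of 15 with Sibjeondaebo-tang is near the share of all genes that fell. CCNG2, a cyclin that is high in arrested cells, gave -0.46, -0.54, -0.45 and -0.24, and SESN1, a sestrin of the p53 response, -0.45, -0.48, -0.41 and -0.26. These too were all called, those of Sagunja-tang not without high-dose replicate 2 or low-dose replicate 3. CDKN1C, the p57 inhibitor, fell with Palmul-tang (-0.67) and Samul-tang (-0.59), where the Samul-tang call was lost without high-dose replicate 2 or low-dose replicate 3. Leaving out 1 library, the falls in this list ranged from 3 to 4, 4 to 6, 3 to 4 and 0 to 3, the rises in the S phase list from 4 to 6, 2 to 3, 0 to 1 and 0 to 5, and those in the DREAM and MuvB list from 4 to 6, 1 to 4, 0 to 0 and 0 to 0, in the same order of extracts.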

How the data were processed

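RNA was sequenced from HT29 cells as 100 bp pairs with a directional kit on an MGI instrument, per the labels' protocols. The submitters' processing notes name FastQC 0.11.9, Trim Galore 0.6.5, STAR 2.7.3a, RSEM 1.3.3 and hg38, and the values, as deposited by the authors, are expected counts from RSEM for each gene. The annotation release and any use of strand in counting are not given in the sources used here. Of the 273 columns, 33 were mapped to samples by the labels and 240 were not used. Wortmannin, LY294002 and doses based on an inhibitory concentration were not analysed here.

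Symbols, exon lengths and overlaps came from GENCODE 29, which held 57055 of the identifiers. Of the 44 genes, 25 overlap another gene, 7 on the same strand and 21 on the opposite one. Values that were not whole (9.45%) were rounded. edgeR 4.0.16 (R 4.3.3) was fitted to all 33 libraries, with TMM scaling, filterByExpr, 13 group means and the quasi-likelihood test, adjusted by Benjamini-Hochberg over 17432 genes at 0.05. Intervals (95%) used 27 degrees of freedom, 20 from the residuals and 7 from the prior. CPM values are TMM-scaled. At 28558866 counts or more per library, replicates still differed beyond counting error, by a chi-square of 3.54 or more per gene, and no pair looked like 1 library deposited 2 times. DESeq2 1.42.0, RLE scaling, no filter, only the groups compared, the replicate number as a block, removal of length and GC trends, and leaving out each library were alternatives. Scripts were tested on simulated data.

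The members and lists were chosen with earlier results of these data known. By rule, 16 core genes are given in every library, and beyond them up to 4 called genes per direction and comparison with the smallest p, and up to 4 from each other list. Other members are named to account for all 44. Same-numbered libraries of different groups had correlations of deviations from -0.169 to 0.172 (median 0.024, 16 of 177 over 0.1). Differently numbered libraries had -0.172 to 0.173 (median -0.015, 10 of 324 over 0.1). The main fit left the numbers out, and these values do not settle whether the numbers pair the samples.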

Additional observations from a re-analysis of the deposited data

How the results depend on the processing

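No call for any of the 44 genes reversed under the alternatives run: of 2972 recomputed values for 257 calls over 40 genes, 2461 kept the call and 511 lost it, 384 of them on leaving out a library. The other lists were recomputed only on leaving out libraries of the high-against-low comparisons, an alternative chosen after seeing the data. The counts of calls depended more on settings, mostly where groups had 2 libraries, and the number called over all genes tested also changed with the setting. The cause was not tested. With only the groups compared, calls numbered 13 for high-dose and 7 for medium-dose Sagunja-tang against vehicle, 0 for its high against low dose and 6 for that of Samul-tang. At the high dose they numbered 0 for Samul-tang against Sagunja-tang and 2 for Sibjeondaebo-tang against Palmul-tang. In that setting 0 of 16109 genes of any kind were called between the doses of Sagunja-tang. For Samul-tang against Sagunja-tang 2 of 15875 genes were higher and 0 lower. Whether the replicate numbers pair the samples was not settled. With the replicate number as a block, calls were 11 for Sagunja-tang and 5 for Samul-tang between doses and 2 for Sibjeondaebo-tang against Palmul-tang. DESeq2 gave 11 and 5 between doses, 5 for Samul-tang against Sagunja-tang, 2 for Sibjeondaebo-tang against Palmul-tang and 1 for the Samul-tang interaction. With no filter the last 2 Samul-tang comparisons gave 5 and 2. With length and GC trends removed, Samul-tang against Sagunja-tang gave 1 and Sibjeondaebo-tang against Palmul-tang 2.

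Leaving out each library in turn, calls against vehicle ranged from 23 to 32, 18 to 22, 9 to 19 and 18 to 26 at the high dose with Sibjeondaebo-tang, Palmul-tang, Samul-tang and Sagunja-tang. They ranged from 15 to 17, 10 to 16, 4 to 12 and 4 to 11 at the medium dose and from 6 to 15, 4 to 13, 3 to 10 and 3 to 15 at the low dose. Between doses the ranges were 18 to 27, 7 to 12, 0 to 0 and 0 to 19. Samul-tang against Sagunja-tang ranged from 0 to 17, Sibjeondaebo-tang against Palmul-tang from 0 to 2, the Samul-tang interaction from 0 to 7 and that of Sibjeondaebo-tang from 0 to 0. With 2 or 3 libraries a group, differences under about 0.1 on the log2 scale were seldom called.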
